A study of Mus musculus with 18 samples.

Results

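Gene expression in injured mouse carotid arteries was compared between day 21 and day 7 after wire injury. The comparison took all libraries labelled with those days, 4 at each, which made 8 of the 18 libraries of the study, and it covered 10312 genes that passed a filter on low counts out of 35655 in the deposited table. All mice were labelled WT for genotype and C57/BL6 for strain. Per the study's methods, a wire was passed through the left carotid artery of male mice aged 11 weeks, with no high-fat diet. The day 7 group and the day 21 group therefore differed by the time since injury and by the age of the mice when sampled. Most mouse numbers of day 7 are higher than every one of day 21, so a difference between series of mice cannot be told apart from time. No group held sham-operated vessels. The remaining libraries came from day 14 (3), day 28 (3) and, as the uninjured reference, from vessels labelled as pre-injury and day 0 (4). The right carotid artery served as the control in the study, and mouse numbers recur between day 0 and day 21, so the day 0 vessels may be uninjured right arteries of mice injured on the left, which the labels do not settle. Each label gives a single mouse number while the study speaks of pooled samples, so whether a library holds tissue of several mice is not settled either. Vessel wall within the outer elastic lamina, neointima included, was cut by laser from up to 70 frozen sections for each library, so each value is a mean over many cells of several types. In such bulk samples, fewer cells of a type and less RNA per cell cannot be told apart.

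An arterial wall is built mainly of smooth muscle cells, which hold the vessel's tone with actin and myosin filaments and lie between sheets of elastin. After a wire has stripped the endothelium and stretched the wall, macrophages enter, smooth muscle cells lose part of their contractile gene expression, divide and move inwards, and the resulting neointima is filled with collagen, elastic fibres and proteoglycans. Many contractile genes are driven by serum response factor with its cofactor myocardin, which bind a short sequence named the CArG box.

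The libraries were small, with 484259 to 676624 counts at day 7 and 440675 to 878310 at day 21, and a single count was worth about 1 to 2 CPM, the counts scaled to a common library total. The 6 smooth muscle markers Acta2, Myh11, Tagln, Cnn1, Mylk and Lmod1 had counts in all 8 libraries. The 10 most abundant genes took 7.68 to 11.1% of the counts at day 7 and 13.9 to 16.9% at day 21. Day 7 replicate 4 stood somewhat apart from the other libraries of its day, with a median correlation of 0.807 to them against 0.857 to 0.869, and it held more of the smooth muscle and elastin transcripts. Without it 475 genes were higher and 299 lower at day 21.

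At an adjusted p under 0.05 (edgeR quasi-likelihood test, Benjamini-Hochberg over all genes tested), 749 genes differed between the days, or 7.26% of those tested. Of these, 416 genes (4.03%) were higher and 333 (3.23%) lower at day 21. The median log2 fold change was 1.71 in the higher genes and -1.23 in the lower ones, while the median over all genes tested was 0.0051. In 335 of the higher genes all 4 day 21 libraries lay above all 4 day 7 libraries, and in 297 of the lower ones below. Over all genes tested, called or not, 7.75% were higher without overlap and 9.18% lower without overlap. The number of lower genes fell on omission of any single library. It was 200 without day 7 replicate 1, 208 without day 21 replicate 1 and 203 without day 21 replicate 4. In the same fits the number of higher genes was 302, 292 and 314. With a block for mouse number, which links days 21 and 0 through 3 mice, 223 genes were called, and 49 of the 105 calls named here were not met. In that fit only 1 day 21 library and 1 day 0 library share a block level with the day 7 libraries. Of 35 gene lists with a call, 9 had none with this block. On simulated counts with the same depths and spread, 100 genes were changed 4-fold and 100 were changed 2-fold. The test made 55 calls there and recovered 48% of genes changed 4-fold and 4% of genes changed 2-fold. The share of changed genes affects the adjusted p and may differ in the data, so these percentages need not hold here. A gene without a call may still differ.

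**Figure D1:**
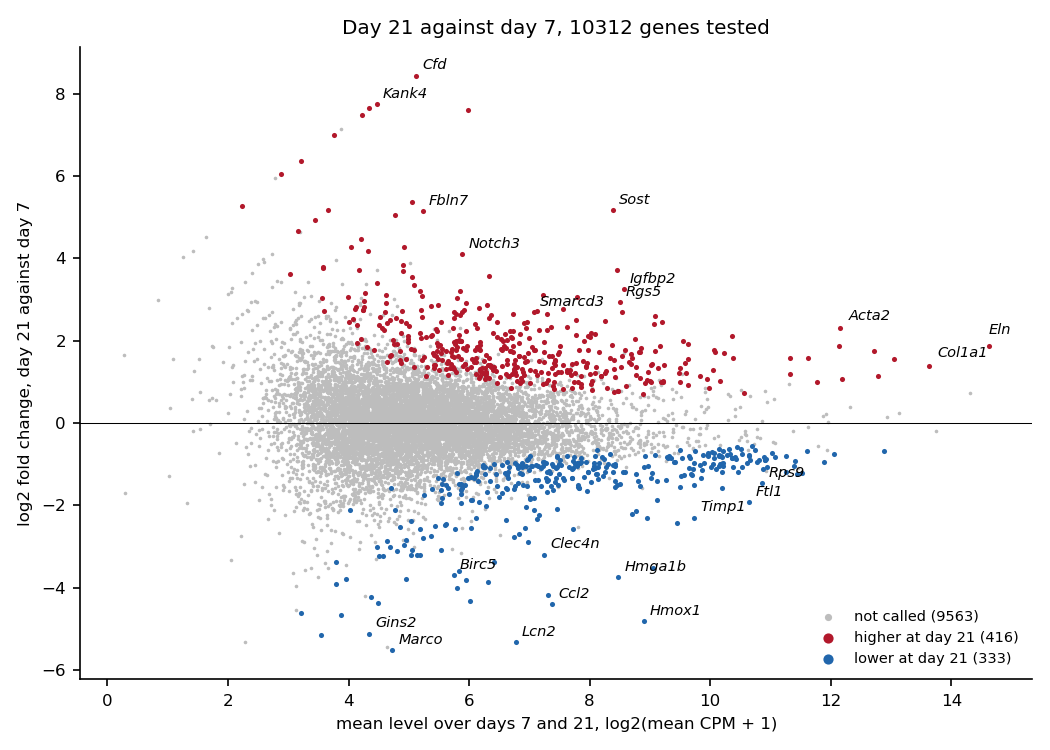
Each point is 1 of the 10312 genes tested, with its mean level over days 7 and 21 on the horizontal axis, as log2(mean CPM + 1), and its log2 fold change of day 21 against day 7 on the vertical axis. Red marks the 416 genes called higher and blue the 333 called lower, and the points above 5 at low levels include genes with no count at day 7, whose fitted fold depends on the prior count.

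Genes of the contractile apparatus were higher at day 21. Of 31 tested members of this list, 22 rose and none fell, with a median log2 fold change of 1.59. Without overlap between the days 20 of the 31 were higher, beside 7.75% over all genes tested. Their summed level was 11191, 7459, 8749 and 20135 CPM in the 4 day 7 libraries and 30559, 23017, 46111 and 35239 CPM in the 4 day 21 libraries. All day 21 sums exceeded all day 7 sums, the highest day 7 sum being that of replicate 4. The same sum was 80609.7 ± 3406 CPM (SD, n = 4) in uninjured vessels. Against those vessels 19 of the 31 genes were still lower at day 21 and none was higher, beside 2.93% lower and 5.92% higher over all genes tested. The day 21 and day 0 libraries carry 3 mouse numbers in common, and both contrasts use the same day 21 libraries. Without day 7 replicate 4, 27 of the 31 rose, and with the block for mouse number 6 did.

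Acta2, the smooth muscle actin of the thin filament, was at 1549, 895, 1009 and 2694 CPM in the day 7 libraries and at 6552, 4226, 11595 and 7944 CPM in those of day 21. Every day 21 library was above every day 7 library (log2 fold change 2.30 ± 0.35, adjusted p = 0.000188), and the uninjured level was 16362 ± 1374 CPM. Myh11, the smooth muscle myosin heavy chain, was at 187, 37.7, 75.8 and 417 CPM at day 7 and at 816, 595, 1499.8 and 1059 CPM at day 21. The groups did not overlap, although day 7 replicate 4 came closest to the day 21 libraries (2.46 ± 0.51, adjusted p = 0.0033). Cnn1, or calponin, which binds actin and restrains the myosin motor, rose by 2.42 ± 0.43 on the log2 scale (adjusted p = 0.000913). Cald1, coding for caldesmon, had the smallest p of the list. Its level was 185, 183, 163 and 158 CPM at day 7 and 607, 513, 602 and 661 CPM at day 21, so both groups were tight and lay far apart (1.79 ± 0.22, adjusted p = 2.68e-05). Smtn, whose product smoothelin marks fully contractile cells, was at 123, 66.5, 57.8 and 144 CPM and then at 643, 242, 503 and 382 CPM (2.18 ± 0.33, adjusted p = 0.000197). The kinase that phosphorylates the myosin light chain, Mylk, rose by 1.67 ± 0.30, and the light chain gene Myl9 by 2.12 ± 0.38. Pdlim3 and Ldb3, which code for proteins that anchor actin filaments, rose by 2.81 ± 0.55 and 2.47 ± 0.41, and Tpm2, a tropomyosin, by 1.58 ± 0.30. Myl6, a light chain that is also made outside muscle, rose by 0.99 ± 0.20. Tagln, an actin-binding protein of smooth muscle, was at 1159, 417, 562 and 2949.5 CPM and 2964, 2272, 6136 and 3958 CPM, with day 7 replicate 4 inside the day 21 range (1.59 ± 0.45, adjusted p = 0.027). That call was not met without day 7 replicate 1, 2 or 3 or day 21 replicate 3 or 4 (highest adjusted p = 0.114, 5.45e-10 to 0.316 over its 17 alternatives), and without day 7 replicate 4 the log2 fold change was 2.44. Nor was the Tagln call met with DESeq2, robust dispersion or the block for mouse number.

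A CArG box was looked for in the promoters of these genes, in RefSeq windows from 250 bases before to 50 bases after each gene's start (table of build GRCm38.p6), on both strands. It was written as CC, 6 letters of A or T, and GG. It lay in 3 of the 18 called members that have such a window, or 16.7%, and in 1.81% of all 27025 genes in the table. The stretches below are shown because they hold the box, in capitals, in genes whose level rose. They run 5′ to 3′ on the gene's strand and were placed on GRCm39 by exact match, Ldb3 at chr14:34310639-34310703 on the minus strand, Myl9 at chr2:156617193-156617262 on the plus strand and Myl6 at chr10:128328889-128328958 on the minus strand.
Ldb3: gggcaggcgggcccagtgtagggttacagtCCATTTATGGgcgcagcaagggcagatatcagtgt
Myl9: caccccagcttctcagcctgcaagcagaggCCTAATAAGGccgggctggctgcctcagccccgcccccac
Myl6: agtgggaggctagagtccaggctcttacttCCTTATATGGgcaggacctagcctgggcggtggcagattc
Such a match is a description of letters and not a measured binding site, and the data hold no measurement of factor binding.

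Signalling genes of smooth muscle were higher as well. Of 12 tested members of the list on cyclic GMP and vasoconstrictor signalling, 8 rose and none fell (median 1.44). This count came down to 3 without day 7 replicate 2 or 3 or without day 21 replicate 3, and to 5 without day 7 replicate 1 or day 21 replicate 1 or 4. Rgs5, a brake on G protein signalling that is typical of pericytes and arterial smooth muscle, was at 90.8, 89.8, 9.97 and 139 CPM at day 7 and at 150.2, 1181, 314 and 914 CPM at day 21. Its day 21 libraries were all above those of day 7 but spread widely, with replicates 2 and 4 far above the others (2.94 ± 0.64, adjusted p = 0.00462). P2rx1, the ATP-gated channel through which sympathetic nerves contract arteries, had 3 counts in all at day 7 (0, 0, 1.99 and 3.23 CPM) and was at 52.0, 105, 9.87 and 37.2 CPM at day 21. Its groups did not overlap (adjusted p = 0.000913). Of 14 genes of smooth muscle ion handling, 4 rose and none fell (median 1.16), and 1 to 2 rose when day 7 replicate 1, 2 or 3 or day 21 replicate 3 or 4 was left out. Among them was Atp2a2, the calcium pump of the sarcoplasmic reticulum, at 110.4, 117, 112 and 108 CPM and then 199.9, 165, 258 and 275 CPM (1.00 ± 0.24, adjusted p = 0.0104). Pln, the small protein that inhibits this pump, had no count in any day 7 library and was at 4.73, 4.04, 18.1 and 39.6 CPM at day 21. Against 3 counts in each day 7 library it was at least 3.10-fold higher (adjusted p = 0.0208), a call that was not met without day 7 replicate 1 or 2 or day 21 replicate 4 (highest adjusted p = 0.0713, 0.000672 to 0.113 over its 16 alternatives).

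The genes with the smallest p-values among those higher at day 21 included the following. Smarcd3, a subunit of the chromatin remodeller that muscle cells use, was at 44.5, 30.5, 25.9 and 40.4 CPM at day 7 and at 238, 196, 224 and 268 CPM at day 21. No library came near the other group (2.70 ± 0.26, adjusted p = 1.19e-06). Notch3, the Notch receptor of arterial smooth muscle, was at 5.34, 5.39, 5.98 and 8.07 CPM at day 7 and at 97.0, 105, 67.4 and 172 CPM at day 21 (4.10 ± 0.46, adjusted p = 8.89e-06). All day 7 libraries were low and alike, and the day 21 level also exceeded the uninjured one of 22.7 ± 2.82 CPM. Sost, coding for the secreted Wnt inhibitor sclerostin, was at 7.12, 1.80, 7.97 and 51.7 CPM and then at 687, 68.6, 819 and 1031 CPM (5.18 ± 0.72, adjusted p = 7.77e-05). Day 7 replicate 4 was the high library of its group and day 21 replicate 2 the low one of the other, and they did not overlap. Uninjured vessels held 1583 ± 474 CPM of Sost. Myom1, a protein of the sarcomere's M-band, rose by 3.11 ± 0.38 (adjusted p = 2.68e-05), and Ncam1, a cell adhesion molecule, by 2.50 ± 0.31 (adjusted p = 2.68e-05). Wwp2, a ubiquitin ligase, was at 296, 241, 219 and 232 CPM and 1093, 930.4, 775 and 796 CPM (1.86 ± 0.20, adjusted p = 5.85e-06). Its annotated exons also hold the gene of a microRNA on the same strand.

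**Figure D2:**
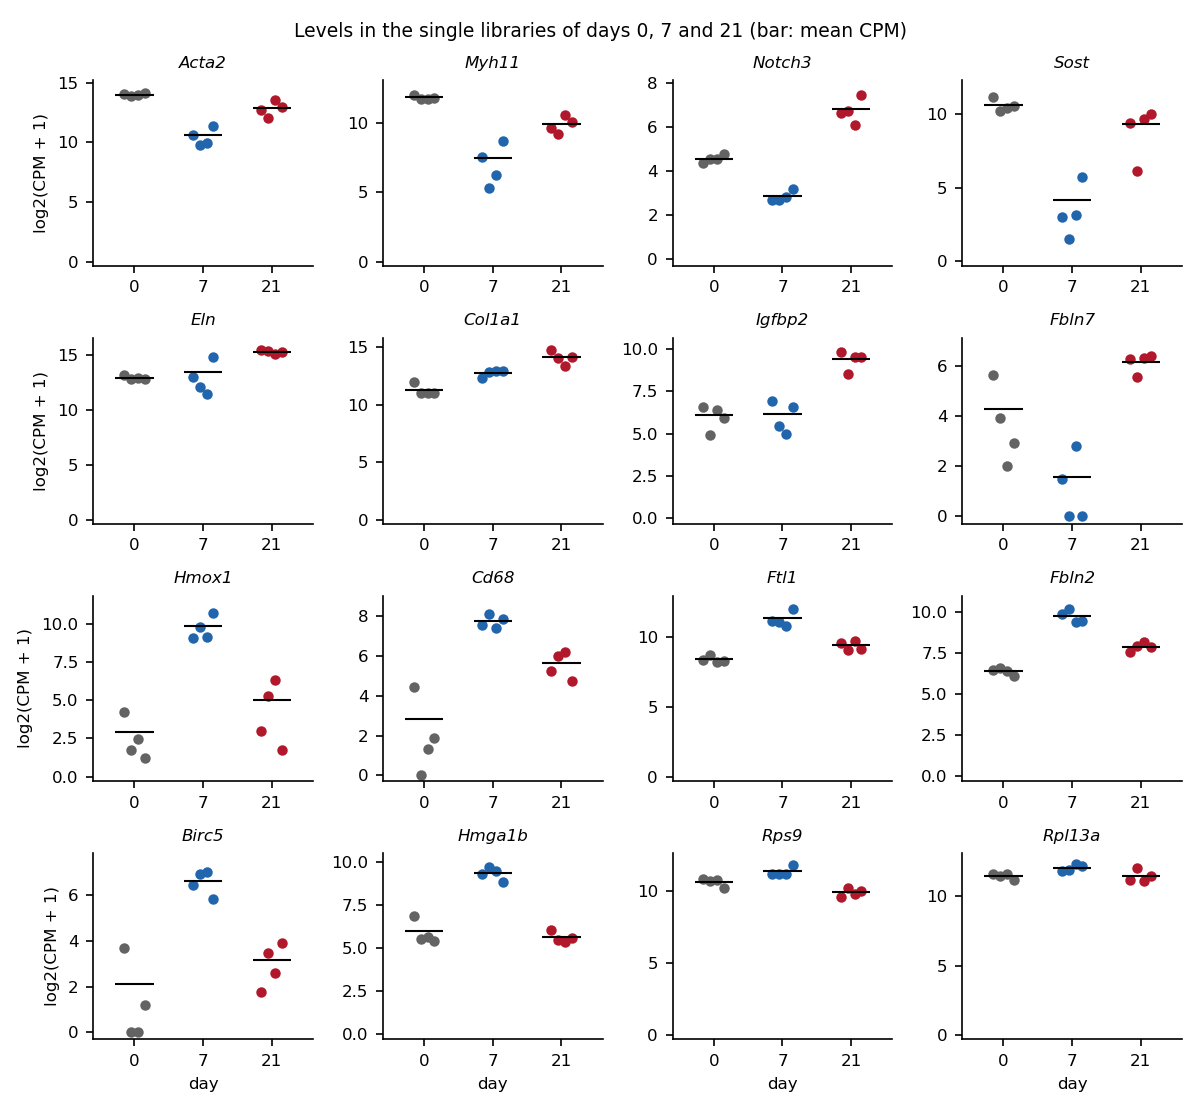
Levels of 16 genes as log2(CPM + 1) in each library of days 0 (grey), 7 (blue) and 21 (red), 4 libraries a day, with a bar at the mean CPM. Acta2 and Myh11 at day 21 lay between day 7 and day 0, Eln, Col1a1, Notch3 and Igfbp2 lay above both, and Hmox1, Cd68, Birc5 and Ftl1 were high at day 7.

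Matrix genes were among the most abundant transcripts that rose. Of 17 tested genes of the elastic fibre 6 rose and 2 fell (median 0.62), and 1 fell without day 7 replicate 1, 2 or 3 or without day 21 replicate 2, 3 or 4. Eln, the gene of tropoelastin, was at 8009, 4268, 2823 and 28344 CPM at day 7 and at 43589, 42892, 33479.9 and 38297 CPM at day 21, against 7823 ± 879.7 CPM in uninjured vessels and 5454 ± 2349.6 CPM at day 28 (SD, n = 3). At day 14 it was at 34123 ± 13139 CPM (SD, n = 3). Between days 21 and 14 edgeR called 0 of the genes tested, and DESeq2 called 43. All day 21 libraries were above all day 7 libraries, but replicate 4 of day 7 was within reach of them and the other 3 were not (1.86 ± 0.45, adjusted p = 0.0103, and 2.99 without that library). The Eln call was not met with robust dispersion or with the block for mouse number. Fbln5, which tethers elastin to cells, rose from 300.5 ± 229 CPM to 1201 ± 47.8 CPM (mean ± SD, n = 4 each, adjusted p = 0.00132). Ltbp4, which holds latent TGF-beta and helps elastin deposit on microfibrils, was at 89.0, 95.2, 81.7 and 345 CPM at day 7 and at 832, 612, 1158 and 1109.9 CPM at day 21. The groups did not overlap, with day 7 replicate 4 the closest (2.59 ± 0.36, adjusted p = 7.62e-05). In uninjured vessels Ltbp4 was at 1384 ± 187 CPM, and day 21 was not called different from day 0 (adjusted p = 0.33). Its relatives Ltbp1 and Ltbp2 rose by 1.41 ± 0.28 and 0.98 ± 0.24. Fbln7, another fibulin, was at 1.78, 0, 5.98 and 0 CPM at day 7 and at 75.7, 46.4, 78.9 and 83.8 CPM at day 21 (5.15 ± 0.84, adjusted p = 0.000404). Fbln2, a fibulin of provisional and basement membrane matrix, went the other way. Its level was 946, 1159, 686 and 694 CPM at day 7 and 189, 246, 286 and 230.4 CPM at day 21, without overlap (-1.87 ± 0.23, adjusted p = 2.68e-05).

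Collagen genes rose in several classes. Of 10 fibrillar collagen genes 3 rose and none fell (median 1.24), the 3 being the main chains of types I and III. Col1a1 was at 5249, 7163, 7707 and 7804 CPM and then 27256, 17534, 10743 and 17665 CPM, with day 21 replicate 3 the lowest of its group and still above every day 7 library (1.39 ± 0.26, adjusted p = 0.00138). Its partner Col1a2 rose by 1.57 ± 0.23 (adjusted p = 0.000111) and Col3a1 by 1.08 ± 0.20 (adjusted p = 0.00118). The Col1a1 level was 2549.5 ± 937 CPM at day 0, 11657 ± 3290 CPM at day 14 and 2995 ± 630.5 CPM at day 28. Of 11 other collagen genes 5 rose and none fell (median 1.12), a count that came down to 2 without day 7 replicate 1 or day 21 replicate 1 and to 3 without day 7 replicate 2 or day 21 replicate 3. Col14a1, which coats collagen fibrils, was at 28.5, 79.1, 29.9 and 77.5 CPM at day 7 and 224, 232, 257 and 326 CPM at day 21 (2.26 ± 0.33, adjusted p = 0.000133). Of 18 basement membrane genes 9 rose and none fell (median 1.03), and 5 rose without day 7 replicate 3. The type IV chains Col4a1 and Col4a2 rose by 1.08 ± 0.24 and 1.43 ± 0.27; exons of these neighbours overlap on opposite strands. Lamc3, a laminin chain, was at 0, 1.80, 3.99 and 9.69 CPM and then at 59.1, 10.1, 72.4 and 74.5 CPM, with day 21 replicate 2 only just above the day 7 range (3.70 ± 0.69, adjusted p = 0.00134). The day 21 mean of 54.0 ± 30.1 CPM was close to the uninjured 54.1 ± 22.3 CPM.

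Of 14 proteoglycan genes 9 rose and none fell (median 1.76). Against uninjured vessels 7 of the 14 tested genes were higher at day 21 and none lower, beside 5.92% higher and 2.93% lower over all genes tested. Ogn, or osteoglycin, a small leucine-rich proteoglycan that binds collagen, was at 69.4, 68.3, 93.7 and 140.5 CPM at day 7 and at 402, 618, 480.2 and 570.1 CPM at day 21, with well separated ranges (2.47 ± 0.30, adjusted p = 2.68e-05). Its uninjured level of 811 ± 103 CPM (SD, n = 4) was above every day 21 library, and day 21 was not called different from day 0 (adjusted p = 0.153). Fmod, coding for fibromodulin, was at 12.5, 64.7, 73.8 and 38.7 CPM and then 628, 464, 159.5 and 319 CPM (3.06 ± 0.56, adjusted p = 0.0011), and uninjured vessels held 76.2 ± 12.0 CPM. Lum, another collagen-binding member, rose by 1.71 ± 0.42 (adjusted p = 0.0115), Prelp by 1.82 ± 0.34 (adjusted p = 0.00136) and Bgn, coding for biglycan, by 1.15 ± 0.25 (adjusted p = 0.0047). Lum at day 21 was at 1837 ± 379 CPM, above its uninjured 119 ± 52.2 CPM. Prelp, at 716 ± 133 CPM, was near its uninjured 732 ± 94.4 CPM, and Bgn, at 9762 ± 906 CPM, near its uninjured 8597 ± 904 CPM. Of 23 genes of collagen processing 5 rose and none fell (median 0.23), and 3 rose when day 7 replicate 1, 2 or 3 or day 21 replicate 1 was left out. They included Adamts2, the peptidase that trims procollagen (1.31 ± 0.26, adjusted p = 0.00196), Loxl3, a cross-linking oxidase (1.25 ± 0.29, adjusted p = 0.0074), and P3h3 (1.20 ± 0.28, adjusted p = 0.00782). Serpinh1, the collagen chaperone, was at 1693, 1251, 2119 and 2294 CPM and 1851, 2202, 1784 and 1726 CPM, with overlapping groups (0.04 ± 0.23, adjusted p = 0.954). Lox, the main lysyl oxidase, overlapped as well (0.67 ± 0.26, adjusted p = 0.138).

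Of 20 matricellular genes, which code for matrix proteins that signal to cells, 4 rose and 1 fell (median 0.53). Sparc was at 3137, 2409.7, 3189.5 and 3565 CPM and 15387, 5241, 8890.0 and 12202 CPM (1.76 ± 0.25, adjusted p = 0.000111), with day 21 replicate 2 the lowest of its group. Ccn3 rose by 2.69 ± 0.55 (adjusted p = 0.00293) although its groups overlapped, and Tgfbi was the member that fell, from 1013, 816, 536 and 378 CPM to 130.1, 151, 187 and 123 CPM without overlap (-2.21 ± 0.33, adjusted p = 0.000171). At day 21 Ccn3 was at 645 ± 405 CPM, beside 1511 ± 278 CPM in uninjured vessels. Tnc, or tenascin-C, a matrix protein of wounds, was uneven at day 7 (199, 347, 1170.2 and 259.9 CPM), with replicate 3 far above the others, and it did not pass the test (-0.61 ± 0.47, adjusted p = 0.535). Without that library its log2 fold change was 0.28. Among 17 metalloproteinases and inhibitors 3 rose and 1 fell (median 0.33), and 1 rose without day 7 replicate 1 or 3 or without day 21 replicate 1, 2 or 3. Timp1, an inhibitor induced in wounds, was at 2776, 1252, 847 and 770.1 CPM and then 376, 315, 273 and 179 CPM (-2.30 ± 0.42, adjusted p = 0.00101). Timp3, the inhibitor that stays bound to matrix, moved in the opposite direction, from 383, 307, 126 and 510.2 CPM to 1087, 595, 1034 and 786 CPM (1.40 ± 0.30, adjusted p = 0.00432). The uninjured level of Timp3 was 1072 ± 219 CPM. Its annotated exons overlap those of Syn3 on the other strand.

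Several genes known from cartilage and bone were higher at day 21. Of 13 tested members of the chondrogenic list 5 rose and none fell (median 2.33), with 3 rising without day 21 replicate 1. Comp, a matrix protein of cartilage and tendon, was at 14.2, 41.3, 3.99 and 82.3 CPM at day 7 and 239, 301, 155 and 272 CPM at day 21 (2.73 ± 0.59, adjusted p = 0.00432). Acan, the core protein of aggrecan, was at 10.7, 66.5, 29.9 and 108 CPM and 299, 232, 196 and 370.0 CPM, also without overlap (2.33 ± 0.57, adjusted p = 0.0116). Both were found in every day 21 library. Alpl, the mineralising alkaline phosphatase, had 1 count in all at day 7 and was at 40.2, 4.04, 3.29 and 44.2 CPM at day 21 (adjusted p = 0.00811). Day 21 replicates 2 and 3 held fewer than 3 counts of it. The day 21 mean of 22.9 ± 22.3 CPM was close to the uninjured 20.4 ± 12.3 CPM (adjusted p = 0.941 between those days). Ibsp, bone sialoprotein, had 1 count at day 7 and was at 379.7, 2.02, 0 and 116 CPM, so that replicates 1 and 4 carried it (adjusted p = 0.0132), and the call was not met without day 21 replicate 1 (highest adjusted p = 0.0863, 2.27e-19 to 0.88 over its 16 alternatives). Robust dispersion and the block for mouse number also ended the Ibsp call. Chad, coding for chondroadherin, had no count at day 7 and was at 147, 0, 0 and 6.98 CPM (adjusted p = 0.0429). Replicate 1 supplied almost all of it, and without that library Chad did not pass the filter on low counts and was not tested. The call was not met without day 7 replicate 1, 2, 3 or 4 or day 21 replicate 4 (highest adjusted p = 0.0956, 1.61e-05 to 1 over its 14 alternatives). DESeq2, robust dispersion and the blocks for replicate and mouse number also ended the Chad call. Col2a1, the cartilage collagen, was at 90.8, 75.5, 67.8 and 67.8 CPM at day 7 and 859, 10.1, 0 and 2.33 CPM at day 21, again high in replicate 1 alone (1.56 ± 1.19, adjusted p = 0.526, and -4.17 without that library). With all libraries and no filter on low counts it was called higher (edgeR adjusted p = 0.000344). Mgp, the inhibitor of arterial calcification, and Sox9, the cartilage transcription factor, did not pass the test (0.73 ± 0.35, adjusted p = 0.243 and 0.36 ± 0.53, adjusted p = 0.785). Mgp was called higher without day 7 replicate 4 (1.29, adjusted p = 0.0105) and with no filter on low counts, and without day 21 replicate 1 the Sox9 value was -0.08.

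**Figure D3:**
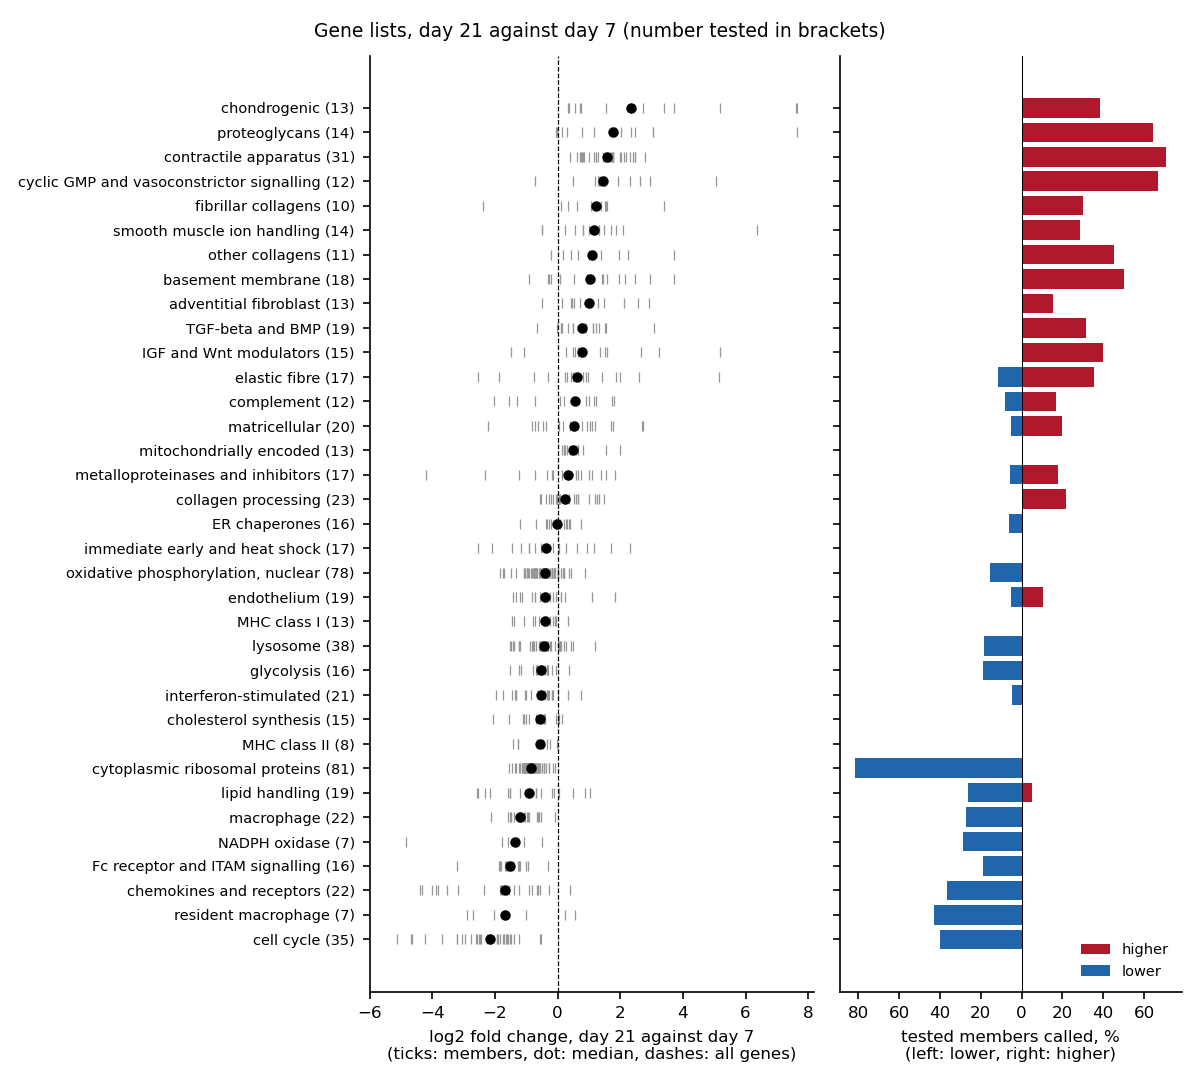
Gene lists ordered by the median log2 fold change of day 21 against day 7, with the number of tested members in brackets. Left, ticks are members, dots medians and the dashed line the median of all genes tested (0.0051). Right, bars give the percentage of tested members called higher (red) or lower (blue), from 22 of 31 contractile genes higher to 66 of 81 ribosomal protein genes lower.

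Macrophage genes were lower at day 21 than at day 7 but remained above the uninjured level. Of 22 tested macrophage genes 6 fell and none rose (median -1.18). Without overlap between the days 13 were lower, beside 9.18% over all genes tested. Against day 0, 21 of the 22 were higher at day 21, beside 5.92% over all genes tested. The number that fell was 3 without day 7 replicate 2 or without day 21 replicate 1 or 4, and with the block for mouse number no macrophage gene was called. The summed level of the list was 7454, 10453, 8018 and 8083 CPM in the day 7 libraries and 3684, 4629.7, 4167 and 2964 CPM in the day 21 libraries. All day 21 sums were below all day 7 sums, and the uninjured sum was 508 ± 242 CPM (SD, n = 4). Lgmn, a lysosomal protease abundant in macrophages, was at 579, 967, 526 and 519.8 CPM and 156, 303, 319 and 205 CPM (-1.40 ± 0.27, adjusted p = 0.00154). Cd68, the glycoprotein of macrophage lysosomes, was at 189, 279, 169 and 236 CPM at day 7 and 36.7, 62.6, 74.0 and 25.6 CPM at day 21 (-2.13 ± 0.52, adjusted p = 0.0105), without overlap. Its call was not met without day 21 replicate 4 (highest adjusted p = 0.052, 2.1e-06 to 0.64 over its 17 alternatives). Laptm5, a lysosomal membrane protein of blood cells, was at 559, 836, 791 and 738 CPM and 300.4, 404, 263 and 282 CPM (-1.23 ± 0.32, adjusted p = 0.0187), and was not called without day 7 replicate 2 or day 21 replicate 1, 3 or 4 (highest adjusted p = 0.0726, 0.000428 to 0.743 over its 17 alternatives). Lyz2, the lysozyme, missed the threshold with groups that did not overlap (2185, 2988, 2538 and 3033 CPM, then 726, 1937, 1404 and 726 CPM, -1.16 ± 0.39, adjusted p = 0.068), as did C1qa, a chain of the first complement component (-1.07 ± 0.39, adjusted p = 0.0973). Both were called in the fit of the 8 libraries alone and with no filter on low counts, and Lyz2 also by DESeq2 (adjusted p = 0.0398) and without day 21 replicate 2.

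The motif GAGGAA, a core of the sites that ETS-family factors such as PU.1 bind in myeloid genes, was looked for in the same promoter windows on both strands. It lay in 9 of the 15 tested macrophage genes with a window (60%) and in 31.3% of all genes in the table. It is shown for the Cd68 and Laptm5 genes described above, with the motif in capitals, which in Laptm5 lies on the opposite strand and so reads TTCCTC. The Cd68 stretch is at chr11:69557186-69557246 on the minus strand and that of Laptm5 at chr4:130640559-130640624 on the plus strand of GRCm39.
Cd68: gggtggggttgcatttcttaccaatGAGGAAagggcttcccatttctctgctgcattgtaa
Laptm5: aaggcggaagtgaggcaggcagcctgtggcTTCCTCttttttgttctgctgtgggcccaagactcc

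Other myeloid and inflammatory lists also held genes that fell and few that rose. Of 7 resident macrophage genes 3 fell (median -1.69). Pf4, a chemokine of platelets and resident macrophages, was at 265, 339.6, 134 and 149 CPM and then 33.1, 42.4, 34.5 and 6.98 CPM (-2.89 ± 0.49, adjusted p = 0.000663), and Mrc1, the mannose receptor, fell by 2.02 on the log2 scale (adjusted p = 0.00223), with day 21 replicate 3 the highest of its group at 57.6 CPM. Of 16 genes of Fc receptor and ITAM signalling 3 fell (median -1.51), 5 without day 7 replicate 4 and none with the block for mouse number. Clec4n, or dectin-2, was at 179.8, 212, 116 and 576 CPM and 27.2, 22.2, 54.3 and 11.6 CPM (-3.20 ± 0.58, adjusted p = 0.00137), Fcgr3 at 240.4, 257, 213 and 239 CPM and 74.5, 68.6, 77.3 and 74.5 CPM (-1.68 ± 0.30, adjusted p = 0.000913). Neither gene overlapped between the days, and the day 21 libraries were nearly alike in Fcgr3. Sirpa, the receptor of the signal that spares cells from phagocytosis, had a log2 fold change of -1.59 ± 0.31, adjusted p = 0.00154. Of 38 lysosomal genes 7 fell (median -0.42), with 3 to 4 without day 7 replicate 2 or without day 21 replicate 2 or 4. One of them was Ctsc, the protease that activates granule enzymes (-1.51 ± 0.34, adjusted p = 0.00574), whereas the abundant cathepsin gene Ctsb did not pass (-0.47 ± 0.23, adjusted p = 0.274). Of 22 chemokines and their receptors 8 fell (median -1.69). The count was 2 without day 7 replicate 1, 4 without day 7 replicate 2 or day 21 replicate 2 and 5 without day 21 replicate 1, 3 or 4. Ccl2, which draws monocytes, was at 545, 415, 297 and 9.69 CPM at day 7 and 17.7, 18.2, 3.29 and 20.9 CPM at day 21 (-4.40 ± 0.86, adjusted p = 0.00246), with day 7 replicate 4 inside the day 21 range. Cxcl12, a chemokine made by stromal cells, was at 1652, 1517, 399 and 747 CPM and 253, 426, 460 and 328 CPM (-1.56 ± 0.33, adjusted p = 0.00358). Its day 7 replicate 3 lay inside the day 21 range.

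A pair of genes that act on haem and iron, named for their p-values, was lower at day 21. Hmox1, the oxygenase that degrades haem, was at 539.5, 904, 572 and 1661 CPM at day 7 and at 7.10, 38.3, 80.6 and 2.33 CPM at day 21, and at 6.51 ± 7.68 CPM at day 0 (-4.83 ± 0.79, adjusted p = 0.000449). Ftl1, the ferritin light chain that stores the iron released, was at 2201, 2144, 1714 and 4115 CPM and 733, 541, 844 and 570.1 CPM (-1.92 ± 0.26, adjusted p = 6.91e-05). Both were highest in day 7 replicate 4 and without overlap. Of 5 red blood cell genes 2 fell (median -3.37), and 0 were lower without overlap. The haemoglobin gene Hbb-bs was at 121, 1057, 1043 and 1676 CPM at day 7 and 130.1, 22.2, 62.5 and 123 CPM at day 21 (-3.51 ± 0.68, adjusted p = 0.00174). Unlike Hmox1 and Ftl1 it overlapped, with replicate 1 of day 7 inside the day 21 range. The part of blood in the levels of Hmox1 and Ftl1 was not tested. Of 7 genes of the phagocyte NADPH oxidase list, which also holds Hmox1, 2 fell (median -1.35), the other being Cyba, a subunit of the enzyme (-1.06 ± 0.25, adjusted p = 0.00761), and none was called with the block for mouse number.

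Lipid handling split. Of 19 tested genes 5 fell and 1 rose (median -0.92), and 2 to 3 fell in the fits without any 1 of the libraries other than day 21 replicate 3. Lgals3, a lectin of foamy macrophages, was at 741, 742, 460.5 and 904 CPM and 158, 121, 268 and 93.1 CPM (-2.14 ± 0.36, adjusted p = 0.000601), and the fatty acid carrier gene Fabp5 at 201, 214, 89.7 and 321 CPM and 18.9, 24.2, 69.1 and 27.9 CPM (-2.56 ± 0.53, adjusted p = 0.00334). Lpl, the lipoprotein lipase, was the gene that rose, from 185, 329, 317 and 463 CPM to 752, 904, 482 and 535 CPM (1.05 ± 0.29, adjusted p = 0.026), and its call was not met without day 7 replicate 1, 2 or 3 or day 21 replicate 1 or 2 (highest adjusted p = 0.104, 0.00446 to 0.104 over its 17 alternatives). Spp1, or osteopontin, and Apoe, the lipid carrier, were abundant on both days and did not pass the test (-0.95 ± 0.61, adjusted p = 0.441 and -0.10 ± 0.34, adjusted p = 0.918). Spp1 was called with no filter on low counts, and the Apoe value was 0.24 without day 7 replicate 4. Of 8 MHC class II and 13 class I genes none was called by edgeR or DESeq2 (medians -0.56 and -0.41), and 0 and 2 had an unadjusted p under 0.05 in edgeR, and of 21 interferon-stimulated genes 1 fell (median -0.52), with 2 without day 7 replicate 4 and none without any 1 of the other libraries. Cd74, the class II invariant chain, was at 1065, 1649.6, 1160.2 and 1114 CPM at day 7 and 1037, 924, 686 and 1336 CPM at day 21, with overlapping groups (-0.33 ± 0.45, adjusted p = 0.768, and 1.11 with the block for mouse number). Of 12 complement genes 2 rose and 1 fell (median 0.56). With single libraries left out, 1 to 3 rose and 0 to 1 fell, with 1 rising without day 7 replicate 1, 2 or 3 or day 21 replicate 3 or 4, and without day 21 replicate 3 the median was -0.24. C1s1, a protease of the classical pathway, was among those that rose (1.81 ± 0.36, adjusted p = 0.00206), and Cfp, properdin of myeloid cells, fell (-2.03 ± 0.52, adjusted p = 0.0156). The Cfp call was not met without day 21 replicate 1 or 4 (highest adjusted p = 0.058, 1.25e-05 to 0.562 over its 17 alternatives).

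Cell cycle genes were lower at day 21. Of 35 tested members 14 fell and none rose (median -2.15), with 22 of 35 lower without overlap, beside 9.18% over all genes tested. Their summed level was 2334, 2196, 2532 and 1317 CPM at day 7 and 660.0, 511, 492 and 645 CPM at day 21, beside 357 ± 51.9 CPM in uninjured vessels (SD, n = 4). Day 7 replicate 4 had the lowest sum of its day and still exceeded every day 21 library. Most of these genes had few counts at day 21, and the number that fell was 6 to 8 in the fits without any 1 library other than day 7 replicate 4, and 1 with the block for mouse number. Birc5, coding for survivin of the dividing cell's chromosomal complex, was at 85.5, 119, 129.6 and 56.5 CPM at day 7 and 2.37, 10.1, 4.93 and 14.0 CPM at day 21 (-3.70 ± 0.76, adjusted p = 0.00272). Ube2c, which tags cyclins for destruction, was at 89.0, 97.0, 119.6 and 61.3 CPM and 18.9, 8.07, 13.2 and 20.9 CPM (-2.57 ± 0.56, adjusted p = 0.005). Mcm3, part of the replicative helicase, fell by 3.20 on the log2 scale, and H2az1, a histone variant, fell by 1.37 (adjusted p = 0.00629 and 0.00564). Gins2, another replication factor, had 2 counts in all at day 21 and was at 67.7, 19.8, 33.9 and 29.1 CPM at day 7 (adjusted p = 0.0036). Cdk1, the mitotic kinase, was at 48.1, 44.9, 63.8 and 72.6 CPM and 2.37, 8.07, 3.29 and 11.6 CPM (-3.22 ± 0.95, adjusted p = 0.0378), and its call was not met without day 7 replicate 1, 2, 3 or 4 or day 21 replicate 1, 2, 3 or 4 (highest adjusted p = 0.126, 0.0014 to 0.833 over its 17 alternatives). Mki67, the usual proliferation marker, did not overlap between the days and missed the threshold (89.0, 102, 102 and 61.3 CPM, then 27.2, 32.3, 16.4 and 32.6 CPM, -1.71 ± 0.64, adjusted p = 0.115). DESeq2 called it (adjusted p = 0.0479), as did the fit of the 8 libraries alone and that with no filter on low counts.

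Many promoters of genes expressed in mitosis hold the cell cycle homology region, with the core TTTGAA. On both strands of the same windows it lay in 13 of 28 tested cell cycle genes with a window (46.4%) and in 20.2% of all genes in the table. It is shown in capitals for Ube2c, at chr2:164611790-164611848 on the plus strand of GRCm39, where it lies on the opposite strand and reads TTCAAA, and for Cdk1, at chr10:69188743-69188843 on the minus strand, whose stretch holds it 2 times.
Ube2c: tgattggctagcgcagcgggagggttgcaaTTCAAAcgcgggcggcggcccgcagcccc
Cdk1: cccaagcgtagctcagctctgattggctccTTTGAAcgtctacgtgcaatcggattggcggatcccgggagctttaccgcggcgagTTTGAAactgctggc

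**Figure D4:**
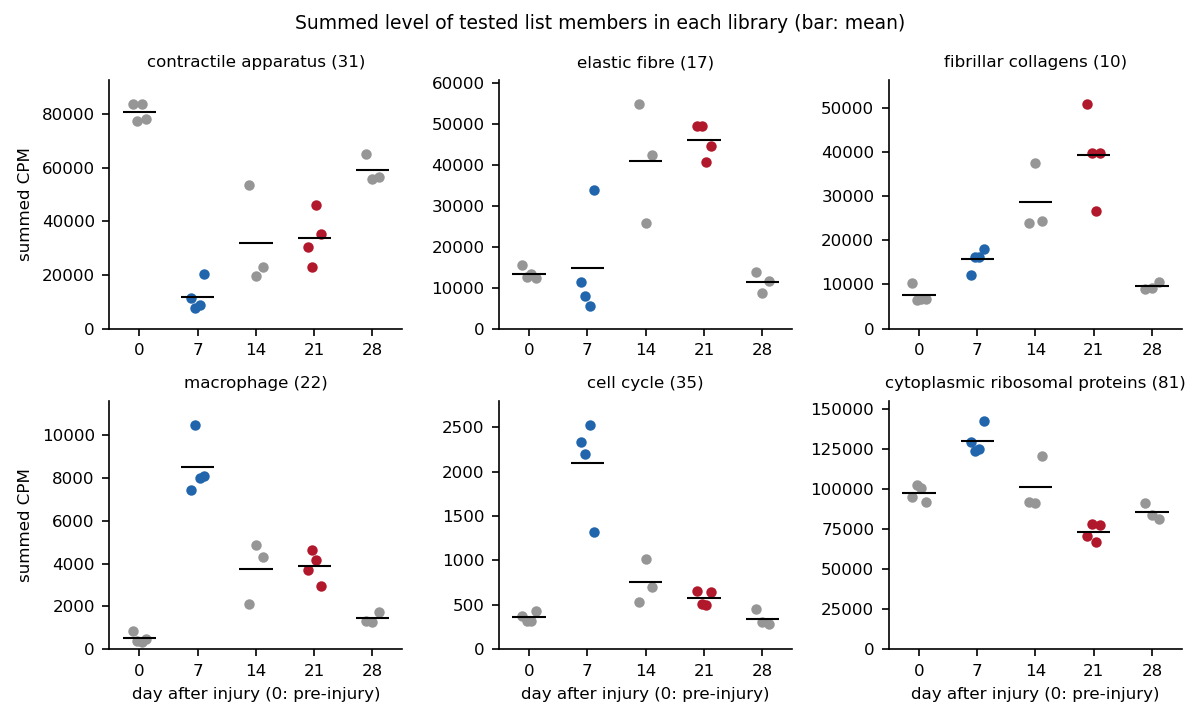
Summed CPM of the tested members of 6 gene lists in each library, by day after injury (0 is pre-injury), with a bar at the mean and days 7 and 21 in blue and red. The contractile sum was lowest at day 7, the elastic fibre and fibrillar collagen sums were high at day 21, and the macrophage, cell cycle and ribosomal protein sums were highest at day 7.

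Ribosomal protein genes were lower at day 21. Of 81 tested genes of cytoplasmic ribosomal proteins 66 fell and none rose. Without overlap 69 were lower, beside 9.18% over all genes tested. The median log2 fold change was -0.84, with a range from -1.54 to -0.08. The summed level was 129262, 123772, 124898 and 142898 CPM in the day 7 libraries and 70922, 78057, 67299 and 77375 CPM in the day 21 libraries. The day 7 sums were all above the uninjured mean of 97704 ± 5161 CPM (SD, n = 4) and the day 21 sums all below it. At day 21, 19 of the 81 genes were lower than at day 0, beside 2.93% over all genes tested. Rps9 was at 2423, 2442, 2396 and 3645 CPM at day 7 and 772, 1195, 909 and 1073 CPM at day 21 (-1.47 ± 0.22, adjusted p = 0.000142). Rpl18 (-1.34 ± 0.20, adjusted p = 0.000131) and Rps18 (-1.20 ± 0.19, adjusted p = 0.000377) fell likewise, and Rpl13a, with the groups overlapping, did not pass (-0.56 ± 0.21, adjusted p = 0.114) but was called without day 21 replicate 2. CPM are shares of a library, and the 10 top genes took more of the day 21 libraries. With library totals alone in place of the scaling factors used here (TMM), 67 of the 81 fell, and with the block for mouse number 19. Many ribosomal protein genes have near-identical processed copies, among which reads may have been divided.

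**Figure D5:**
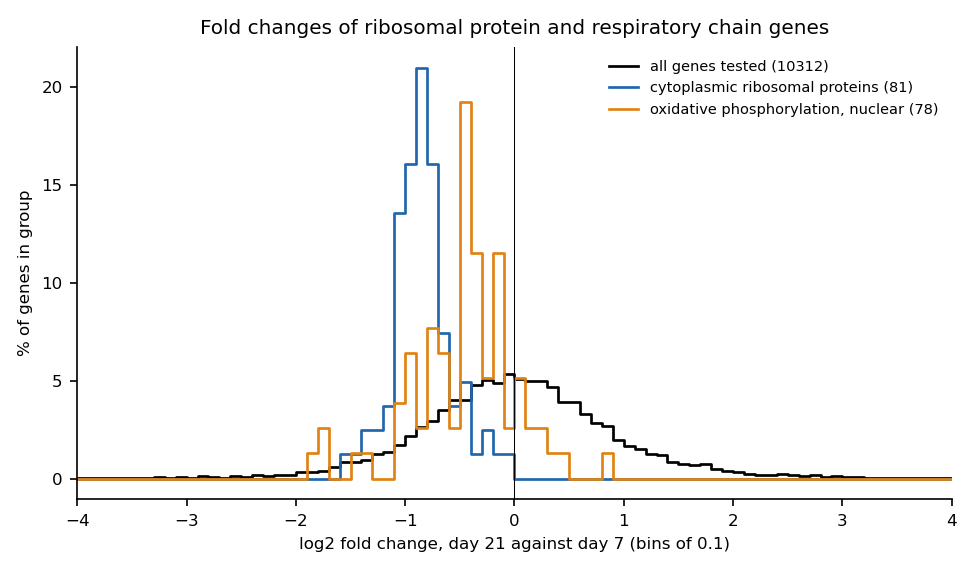
Distribution of log2 fold changes of day 21 against day 7 in bins of 0.1, as the percentage of each group, for all 10312 genes tested (black), 81 genes of cytoplasmic ribosomal proteins (blue) and 78 nuclear genes of oxidative phosphorylation (orange). The ribosomal protein genes form a narrow peak about their median of -0.84, and all of them lie below 0.

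Ncl, Pabpc1, Nme1 and Hmga1b, named for their p-values and not a list, fell as well. Ncl, coding for nucleolin of the nucleolus, was at 413, 447, 435 and 391 CPM and 172, 204, 189 and 175 CPM (-1.19 ± 0.19, adjusted p = 0.000331), and Pabpc1, which binds the poly(A) tail, had a log2 fold change of -1.33 ± 0.22, adjusted p = 0.000404. Nme1, a nucleoside kinase, was at 287, 241, 233 and 215 CPM and 80.4, 84.8, 87.2 and 83.8 CPM (-1.54 ± 0.24, adjusted p = 0.00033), with a readthrough gene sharing its exons. Hmga1b, a chromatin protein of growing cells whose sequence is nearly that of Hmga1, was at 623, 828, 724 and 457 CPM at day 7 and 65.1, 42.4, 39.5 and 46.5 CPM at day 21. It had the smallest p of all lower genes (-3.75 ± 0.38, adjusted p = 2.2e-06), and reads may have been split between the copies. Of 16 glycolytic genes 3 fell (median -0.51), among them Pkm, the pyruvate kinase (-1.24 ± 0.22, adjusted p = 0.000913), and Pgk1 (-1.52 ± 0.34, adjusted p = 0.00564). Of 78 nuclear genes of oxidative phosphorylation 12 fell (median -0.41), 5 without day 21 replicate 4, and none rose. The 13 mitochondrially encoded genes had positive fold changes without exception, with a median of 0.50. None was called by edgeR, 5 had an unadjusted p under 0.05, and DESeq2 called mt-Nd3 and mt-Nd4l. Of 15 cholesterol synthesis genes (median -0.56) and 17 immediate early and heat shock genes (median -0.38) edgeR called none. At an unadjusted p under 0.05 there were 2 and 7 of them, and DESeq2 called 0 and 2, the 2 being Junb and Ier3. Of 16 ER chaperone genes 1 fell (median -0.02).

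Growth factor genes and their modulators were among those higher at day 21. Of 15 IGF and Wnt modulators 6 rose and none fell (median 0.77). Igfbp2, an IGF-binding protein, was at 119, 43.1, 29.9 and 93.6 CPM at day 7 and 891, 367, 735 and 738 CPM at day 21 (3.25 ± 0.42, adjusted p = 5.13e-05). Its day 21 libraries were also above the uninjured 66.3 ± 29.0 CPM. Sfrp4, a decoy of Wnt ligands, was at 30.3, 28.8, 9.97 and 98.5 CPM and 99.4, 434, 279.6 and 272 CPM (2.66 ± 0.46, adjusted p = 0.000778), with day 21 replicate 1 just above day 7 replicate 4. Of 19 genes of TGF-beta and BMP signalling 6 rose and none fell (median 0.78). Only 2 rose on omission of day 7 replicate 2, and 3 on omission of day 7 replicate 1 or day 21 replicate 1 or 3. Bmp2, a bone morphogenetic protein, was at 3.56, 7.19, 5.98 and 12.9 CPM and 79.2, 58.5, 51.0 and 72.1 CPM (3.09 ± 0.51, adjusted p = 0.000512). Gdf10, a related ligand that lies outside the list, was at 49.9, 53.9, 5.98 and 85.6 CPM at day 7 and 709.7, 349, 474 and 1070.3 CPM at day 21 (3.71 ± 0.49, adjusted p = 5.13e-05). Vasn, a membrane protein that traps TGF-beta, was at 110.4, 97.0, 69.8 and 111 CPM and 410.4, 329, 350.3 and 577 CPM (2.09 ± 0.28, adjusted p = 5.13e-05), and its exons lie within the annotated exons of Dnaja3 on the same strand.

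The last genes named by size or p-value form no list. Kank4, an adhesion scaffold protein, had no count at day 7 and was at 35.5, 40.4, 28.0 and 65.1 CPM at day 21, at least 7.88-fold higher against 3 counts in each day 7 library (adjusted p = 0.0011). Map3k7cl likewise had none and was then at 23.7, 16.1, 29.6 and 30.2 CPM, at least 4.65-fold higher (adjusted p = 0.00299). Cys1, a cilium-associated protein, rose by 3.56 ± 0.45 (adjusted p = 2.68e-05). Among lower genes, S100a4, a calcium-binding protein of motile cells, was at 1955, 1364, 1946 and 1740.3 CPM and 646, 511, 628 and 575 CPM (-1.57 ± 0.23, adjusted p = 0.000111), and Alox5ap, needed to make leukotrienes, at 223, 169, 173 and 223 CPM and 37.9, 16.1, 36.2 and 27.9 CPM (-2.71 ± 0.39, adjusted p = 0.000106). Both were apart in all libraries. Procr, the endothelial protein C receptor, fell by 2.59 on the log2 scale (adjusted p = 0.000404), of which day 7 replicate 3 supplied much, the value without it being -1.69. Marco, a scavenger receptor of macrophages, had 2 counts in all at day 21 and was at 60.5, 7.19, 29.9 and 102 CPM at day 7 (adjusted p = 0.00742). It was tested in only 12 alternatives, and neither DESeq2 nor the fit with the block for mouse number called it.

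Markers of other cell types differed in detection. The filter on low counts passed 19 of 20 endothelial genes and 5 of 13 neutrophil genes. Of 19 endothelial genes 2 rose and 1 fell (median -0.41), and with single libraries left out 0 to 2 rose and 0 to 2 fell. Vwf, the clotting factor that endothelium stores, was at 0, 12.6, 19.9 and 67.8 CPM and 75.7, 76.7, 105 and 109 CPM (1.83 ± 0.55, adjusted p = 0.0393), and Cdh5, the endothelial cadherin, at 126, 147, 464 and 263 CPM and 72.2, 66.6, 129.9 and 102 CPM (-1.43 ± 0.39, adjusted p = 0.0238). These moved in opposite directions. The Vwf call was not met without day 7 replicate 1, 2 or 3 or day 21 replicate 1, 3 or 4 (highest adjusted p = 0.119, 0.000127 to 0.446 over its 17 alternatives), with a log2 fold change of 3.10 without day 7 replicate 4, and the Cdh5 call not without day 7 replicate 3 or day 21 replicate 1, 2 or 4 (highest adjusted p = 0.177, 0.000624 to 0.177 over its 17 alternatives), with a value of -0.94 without day 7 replicate 3. The fit of the 8 libraries alone, robust dispersion and the block for mouse number also ended the Vwf call. Of 13 adventitial fibroblast genes 2 rose (median 1.00), while none did without day 7 replicate 1, 2 or 3, and 1 did without day 21 replicate 3. Of 5 neutrophil genes 1 fell (median -1.48): Lcn2, a neutrophil granule protein also made by stressed cells, was at 623, 173, 0 and 50.05 CPM at day 7, absent from replicate 3, and at 0, 0, 19.7 and 0 CPM at day 21 (adjusted p = 0.00811, a call not met without day 7 replicate 1 (highest adjusted p = 0.132, 2.27e-19 to 0.192 over its 17 alternatives)). Nor was the Lcn2 call met with DESeq2, robust dispersion or the block for mouse number. S100a8, another granule protein, was at 331, 104, 199 and 95.3 CPM and 7.10, 4.04, 242 and 2.33 CPM, with day 21 replicate 3 inside the day 7 range (-1.49 ± 1.05, adjusted p = 0.481). Without that library S100a8 was called lower (-5.14, adjusted p = 0.0164), as it was with all libraries and no filter on low counts. In the fit without day 21 replicate 3, 3 of the 5 neutrophil genes fell, with a median of -5.14. None of them fell without day 7 replicate 1. None of 12 T cell and NK cell genes and none of 4 mast cell genes passed the filter on low counts. Of 3 B cell genes (median 2.85) none was called by edgeR or DESeq2 and 2 had an unadjusted p under 0.05. Igkc, an antibody light chain, was at 0, 12.6, 9.97 and 3.23 CPM and 31.9, 60.5, 21.4 and 76.8 CPM (2.85 ± 1.04, adjusted p = 0.103) and was called in the fit of the 8 libraries alone and with no filter on low counts.

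Markers of adipocytes and nerve were measured at low levels. Of 3 adipocyte genes 2 rose (median 5.27, or 1.45 with genes at 0 on day 7 set to their lower bound), and 1 rose without day 7 replicate 2, 3 or 4 or without day 21 replicate 1 or 4. Cfd, or adipsin, had no count at day 7 and was at 69.8, 54.5, 141 and 4.65 CPM at day 21, at least 12.6-fold higher against 3 counts per library (adjusted p = 0.00443). The summed level of the adipocyte list was 38.3 ± 30.01 CPM at day 7 and 179.8 ± 99.0 CPM at day 21, both below the 322 ± 54.2 CPM of day 0 (SD, n = 4 each). The summed level of 6 Schwann cell and nerve genes was 167, 106, 106 and 157 CPM at day 7 and 284, 357, 117 and 149 CPM at day 21, so the groups overlapped. Gp1bb, the single tested platelet gene, rose, and its exons overlap those of Septin5 on the same strand. Neither edgeR nor DESeq2 called a gene from the skeletal muscle list (3 tested, median 1.01, 0 at an unadjusted p under 0.05) or from the list on thyroid and epithelium (1 tested, median -1.22, 1 at an unadjusted p under 0.05). The part of such cells in the other results was not tested.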

How the data were processed

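RNA of laser-dissected carotid tissue was measured with MACE, a 3′-end sequencing method, in 18 libraries from days 0, 7, 14, 21 and 28. Per the study's methods and the labels, duplicates were removed with molecular identifiers, and reads were quantified with Salmon 1.9.0 against the mm39 transcriptome. The annotation release and the use of strand are not given in the sources used here. The authors deposited estimated counts per gene (expected counts), which are whole numbers in the table and were used as they stand. Their table of counts normalised with DESeq2 1.36.0 was not used. Each library is named by day and replicate number as labelled. Beyond a mouse number the labels do not describe how the replicates were obtained, and the study speaks of pooled samples, so p-values measure the spread between these libraries, whatever number of mice each one holds.

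All 18 libraries were fitted by day in edgeR 4.0.16 (R 4.3.3) with TMM scaling and filterByExpr, and day 21 was tested against day 7 with the quasi-likelihood F-test, calling genes at a Benjamini-Hochberg adjusted p under 0.05 among the 10312 that passed the filter. The common biological coefficient of variation was 0.449. Standard errors were derived from the F statistic. CPM were computed from counts in tested genes after TMM scaling, and 3 counts in a library served as the floor for lower bounds. The steps were tested on simulated data. Lower bounds cover counting error only.

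The comparison, the gene lists and the motifs were chosen with earlier results of these data known. Genes were named if they were among the 15 protein-coding calls with the smallest p in each direction without overlap, the 6 largest changes in each direction at a mean CPM of at least 10, the leading called and most abundant members of a list, or markers of other cell types and cartilage, and part of these is described. A few results are not reported here. Myh11, Tagln, Myl9, Pdlim3, Tpm2, Ltbp2, Tnc, C1qa, Cdk1 and Mki67 with values, and Junb, Ier3, mt-Nd3 and mt-Nd4l by name, lie outside this rule and were chosen after their values were seen. Of 121 genes named with values, 62 have exons that overlap a gene on the other strand and 12 on the same strand in GENCODE annotation of GRCm39, and such reads could not be told apart. Alternatives were DESeq2 1.42.0, other scalings, filters, dispersions and thresholds, the 8 libraries alone, blocks by replicate or mouse number, and each library left out in turn.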

Additional observations from a re-analysis of the deposited data

Results flagged for a closer look

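Within the 4 libraries of a day, the highest or lowest value of a named gene was marked when its gap to the nearest of the others took more of the range than Dixon's 95% critical value for 4 samples allows. Chance marks about 1 in 20 such groups, and here 18 of 242 groups (7.44%) were marked, spread over 7 of the 8 libraries.

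Day 7 replicate 4 was the high library for Sost (51.7 CPM, the others 1.80 to 7.97), Ltbp4 (345 CPM, the others 81.7 to 95.2) and Rps9 (3645 CPM, the others 2396 to 2442). Day 7 replicate 3 was high for Tnc (1170.2 CPM, the others 199 to 347) and Procr (857 CPM, the others 113 to 239). Day 7 replicate 2 was high for Lgmn (967 CPM) and Cd74 (1649.6 CPM), and replicate 1 was low for Mcm3 (39.2 CPM, the others 69.8 to 73.7).

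At day 21, replicate 1 was high for the cartilage genes Chad (147 CPM) and Col2a1 (859 CPM), for which no other day 21 library exceeded 10.1 CPM. Replicate 2 was high for Ltbp2 (866 CPM, the others 556 to 579). Replicate 3 was high for S100a8 (242 CPM, the others 2.33 to 7.10), Mrc1 (57.6 CPM, the others 18.6 to 24.2) and Lcn2 (19.7 CPM, the others at 0).

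The remaining marks rest on 1 or 2 counts in a group otherwise at 0, namely Ibsp (1.80 CPM) in day 7 replicate 2, Alpl (1.78 CPM) in day 7 replicate 1, and Marco and Gins2 (4.04 CPM each) in day 21 replicate 2.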

How the results depend on the processing

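All 105 named genes that were called kept their direction under every alternative in which they were tested. Of these, 93 kept their call in every fit with a single library left out in which they were tested. A gene that did not pass the filter on low counts in such a fit was not tested there. The number of genes called was 998 with DESeq2, and with each library left out in turn it ranged from 500 to 774. The number higher ranged from 286 to 475 and the number lower from 200 to 299. In the fit of the 8 libraries alone 520 genes were lower and 527 higher. At an adjusted p under 0.01 there were 352 calls (208 higher, 144 lower), and 271 (184 and 87) when tested against a fold of at least 1.5. With no filter on low counts 956 genes were called, with library totals alone 775. A replicate block gave 683 calls (398 higher, 285 lower). Libraries with the same number did not deviate together (residual r from -0.13 to 0.048), and the labels do not say that the numbers pair them. A mouse block, in which 3 mice link day 21 to day 0 and none links it to day 7, gave 223 calls (121 higher, 102 lower), and 49 of the 105 named calls were not met. In that fit day 21 replicate 2 and day 0 replicate 1 are the only libraries of their days with a block level in common with day 7. Robust dispersion estimation ended 7 of the named calls (Tagln, Eln, Lum, Chad, Ibsp, Lcn2 and Vwf) and DESeq2 4 (Tagln, Chad, Lcn2 and Marco).

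With the mouse block the number of calls was 0 in the macrophage list (6 before), 1 in cell cycle (14 before), 6 in the contractile list (22), 19 in ribosomal proteins (66), 1 in TGF-beta and BMP (6), 2 in basement membrane (9) and 3 in proteoglycans (9), while fibrillar collagens and glycolysis had 3 each as before.

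Medians turned sign in 4 lists. With the mouse block MHC class II went from -0.56 to 0.45 and skeletal muscle, with 3 genes, from 1.01 to -1.82. The complement median ranged from -0.24 (without day 21 replicate 3) to 0.72 with single libraries left out. The ER chaperone median was 0.0060 with a stricter filter, 0.020 with the 8 libraries alone, 0.019 with the mouse block, 0.033 and 0.045 without day 7 replicate 1 and 2, and 0.062 without day 21 replicate 4, the lowest with a library left out being -0.091. At these depths a gene at a few CPM rests on a handful of counts.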
